A study of Mus musculus with 8 samples.

Results

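The genes described here are 9 adhesion genes that anchor basal keratinocytes to the basement membrane: *Itga6*, *Itgb4*, *Col17a1*, *Dst*, *Plec*, *Itga3*, *Itgb1*, *Lama3* and *Lamb3*. They were taken by symbol from the 19591 genes that had a row in the deposited tables, and each of the 9 had a row in the bulk tables and in all 6 single-cell plates. All 9 passed the filters on low counts in both fits, which left 4653 genes in the bulk libraries and 5132 genes in the single-cell sums.

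The samples were back skin epidermis of adult C57BL/6 mice that carry the Troy-EGFP-IRES-CreERT2 knockin, in which EGFP and CreERT2 are made from the *Troy* (*Tnfrsf19*) locus and take the place of its coding sequence, so EGFP reports *Troy* and the allele itself makes no TROY. For the bulk libraries, 3 populations were sorted from each of 2 such mice: all viable (DAPI-) cells, ITGA6bright EGFP+ cells and ITGA6bright EGFP- cells. Single cells of 4 Troy-EGFP mice, from the ITGA6- gate and from both ITGA6bright gates, were sorted into plates, 1 plate a mouse, and the gate of each well was not used here. Another 2 plates came from mice that were double homozygous for Troy-EGFP-IRES-CreERT2 and Rosa26-LSL-tdTomato, in which tamoxifen switches on tdTomato in *Troy*-expressing cells and their progeny. They hold tdTomato+ and tdTomato- cells taken days after tamoxifen and are called traced mice below.

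Hemidesmosomes rivet the basal keratinocyte to the basement membrane. In them the integrin of *Itga6* and *Itgb4* and the transmembrane collagen of *Col17a1* are held on the inside by the plakins of *Dst* (BPAG1e in skin) and *Plec* (plectin), which bind the keratin filaments of *Krt5* and *Krt14*. On the outside they bind laminin-332, of which *Lama3* and *Lamb3* encode the alpha and beta chains. The integrin of *Itga3* and *Itgb1* binds the same laminin but connects to actin in focal adhesions. Differentiating keratinocytes detach from the membrane and replace *Krt5* and *Krt14* by *Krt1* and *Krt10*, which some committed cells already make in the basal layer.

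In the GRCm38 (mm10) annotation all 9 are protein-coding genes. *Itga6* lies at chr2:71745616-71858416 on the plus strand, *Itgb4* at chr11:115974709-116008412 (plus), *Col17a1* at chr19:47646344-47692094 (minus) and *Plec* at chr15:76170974-76232574 (minus). *Itga3* lies at chr11:95044474-95076801 (minus) and *Itgb1* at chr8:128685654-128733200 (plus). *Dst* at chr1:33908225-34308661 and *Lamb3* at chr1:193207699-193343878 are on the plus strand. *Dst* has 20 and *Plec* 22 annotated transcripts. The libraries counted transcript ends per gene, so the epithelial and other isoforms of these plakins cannot be told apart, counts do not scale with gene length, and levels are compared here within a gene and not between genes.

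RefSeq start sites gave 8 promoter windows for 5 of the members (*Col17a1*, *Dst*, *Itga3*, *Itgb1* and *Lamb3*). Each runs from 250 bases before to 50 bases after the start in GRCm38.p6. The windows shown belong to members that were lower in Krt1/Krt10-rich wells of the Troy-EGFP mice, and they show how unlike the starts of these genes are. Capitals mark matches, on either strand, to a TATA box (TATAAA), a GC box (GGGCGG) or an AP-1 site (TGANTCA), and no 2 matches overlapped.
*Col17a1*, chr19:47691993-47692292, minus strand: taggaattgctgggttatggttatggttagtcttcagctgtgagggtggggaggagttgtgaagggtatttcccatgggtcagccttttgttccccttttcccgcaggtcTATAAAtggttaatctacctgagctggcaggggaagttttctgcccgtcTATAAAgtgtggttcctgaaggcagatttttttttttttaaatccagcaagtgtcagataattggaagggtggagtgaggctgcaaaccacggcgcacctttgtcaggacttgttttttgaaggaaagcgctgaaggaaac
*Dst*, chr1:34011345-34011644, plus strand: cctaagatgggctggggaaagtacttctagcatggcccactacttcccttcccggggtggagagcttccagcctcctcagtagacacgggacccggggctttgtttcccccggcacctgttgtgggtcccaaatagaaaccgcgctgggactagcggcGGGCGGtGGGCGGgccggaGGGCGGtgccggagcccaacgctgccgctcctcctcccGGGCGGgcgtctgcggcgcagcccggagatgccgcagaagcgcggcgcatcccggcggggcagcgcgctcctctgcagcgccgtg
*Dst*, chr1:34160010-34160309, plus strand: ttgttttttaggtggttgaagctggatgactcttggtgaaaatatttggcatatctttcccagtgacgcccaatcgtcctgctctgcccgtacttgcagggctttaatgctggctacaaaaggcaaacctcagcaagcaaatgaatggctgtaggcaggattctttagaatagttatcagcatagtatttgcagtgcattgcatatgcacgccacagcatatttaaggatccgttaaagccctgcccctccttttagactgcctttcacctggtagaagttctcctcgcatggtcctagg
*Itga3*, chr11:95076665-95076964, minus strand: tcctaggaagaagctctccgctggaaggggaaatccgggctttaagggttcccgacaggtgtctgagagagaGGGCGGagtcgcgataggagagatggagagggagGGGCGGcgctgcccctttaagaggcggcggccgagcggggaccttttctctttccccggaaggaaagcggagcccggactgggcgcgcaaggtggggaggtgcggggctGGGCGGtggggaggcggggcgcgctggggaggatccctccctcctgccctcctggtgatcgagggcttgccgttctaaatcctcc
*Lamb3*, chr1:193301993-193302292, plus strand: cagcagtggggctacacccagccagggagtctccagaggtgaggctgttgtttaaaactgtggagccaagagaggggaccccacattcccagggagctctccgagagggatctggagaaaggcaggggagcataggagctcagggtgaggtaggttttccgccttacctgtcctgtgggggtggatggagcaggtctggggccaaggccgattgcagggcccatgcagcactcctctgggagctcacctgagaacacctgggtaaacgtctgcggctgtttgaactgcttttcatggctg
The *Col17a1* window held 2 matches to the TATA box, which 13.6% of 32544 promoters of this length hold. The upstream *Dst* window held 4 GC boxes and the *Itga3* window 3, a motif in 35.9% of promoters, whereas the downstream *Dst* window held no match to any of the 3 motifs. Neither *Lamb3* window held a match. A match to the AP-1 pattern, found in 7.79% of promoters, stood in the window of the other *Itga3* start (chr11:95069149-95069448). Its letters were TGAATCA, and the middle letter of the pattern may be any base. A match says only that the letters are there. The count tables do not say which start a transcript came from.

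The depth of the bulk libraries ran from 157537 counts on genes (EGFP- mouse 1) to 453005 (viable mouse 2). The plates held between 236805.6 and 1064649.4 transcripts, and 1109 of 2304 wells reached 1000 transcripts without spike-in and mitochondrial rows. The plates of Troy-EGFP mice 1 and 2 were the shallowest, with at most 7 spike-in rows and no mitochondrial rows, whereas those of mice 3 and 4 had up to 51 and 32. The markers of the labelled tissue were there: all 4 of the basal list (*Krt5*, *Krt14*, *Krt15*, *Ly6a*) were detected in every bulk library and in each of the 12 single-cell sums. Replicates of a group differed by more than counting error (chi-square per degree of freedom 1.5 to 4.06). No library was thus a repeat of another. Where p-values are given, they rest on the spread between these few mice, estimated with information shared over genes. Values with the mouse as a block compare samples within a mouse. Their small p-values lean on the spread shared over genes and do not measure a gene's own spread between mice.

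To compare cells by their keratins, wells with at least 20 transcripts of *Krt5*, *Krt14*, *Krt1* and *Krt10* were divided by the share of *Krt1* and *Krt10* among the 4. At most 10% gave 590 Krt5/Krt14-rich wells, at least 50% gave 110 Krt1/Krt10-rich wells, and 49 wells lay between. Most wells lay far from these limits: of 749 wells, 504 had a share of at most 2% and 74 a share of at least 90%, while 25 lay at 5 to 15% and 16 at 40 to 60%. The 4 keratins chose the classes and are no finding between them, and the layer a well came from is not known from them. Wells with at least 2 immune marker transcripts (129) and wells with fewer keratin transcripts (231) were left out. Transcripts were summed per mouse and class, and a sum needed 10 wells, so the Krt1/Krt10-rich class rests on Troy-EGFP mice 3 and 4 (40 and 24 wells) and on traced mice 1 and 2 (24 and 10 wells). Levels below are CPM, the counts of a gene per 1000000 counts of its sum or library, with TMM scaling. Calls are those of edgeR's quasi-likelihood test at a Benjamini-Hochberg adjusted p under 0.05 over all 5132 genes.

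All 9 genes were lower in Krt1/Krt10-rich than in Krt5/Krt14-rich wells in both experiments, and 6 of the 9 passed the test in the Troy-EGFP mice and 4 in the traced mice. Of all genes tested, 8.89% were called in the Troy-EGFP mice (4.83% lower) and 3.68% in the traced mice (2.14% lower). The median log2 fold change of the 9 genes was -2.78 in the Troy-EGFP mice, against -0.08 over all genes, and -1.85 in the traced mice, against -0.15. All Krt1/Krt10-rich sums lay below all Krt5/Krt14-rich sums in 8 of the 9 genes in the Troy-EGFP mice (not *Lama3*), against 14.4% of all genes, and in 9 of the 9 in the traced mice, against 34.2%. The summed level of the 9 genes was 6804 to 8333 CPM in the Krt5/Krt14-rich sums of the Troy-EGFP mice and 1744 and 1851 CPM in their Krt1/Krt10-rich sums. In the traced mice it was 5696 and 5655 CPM against 2093 and 1704 CPM.

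**Figure D1:**
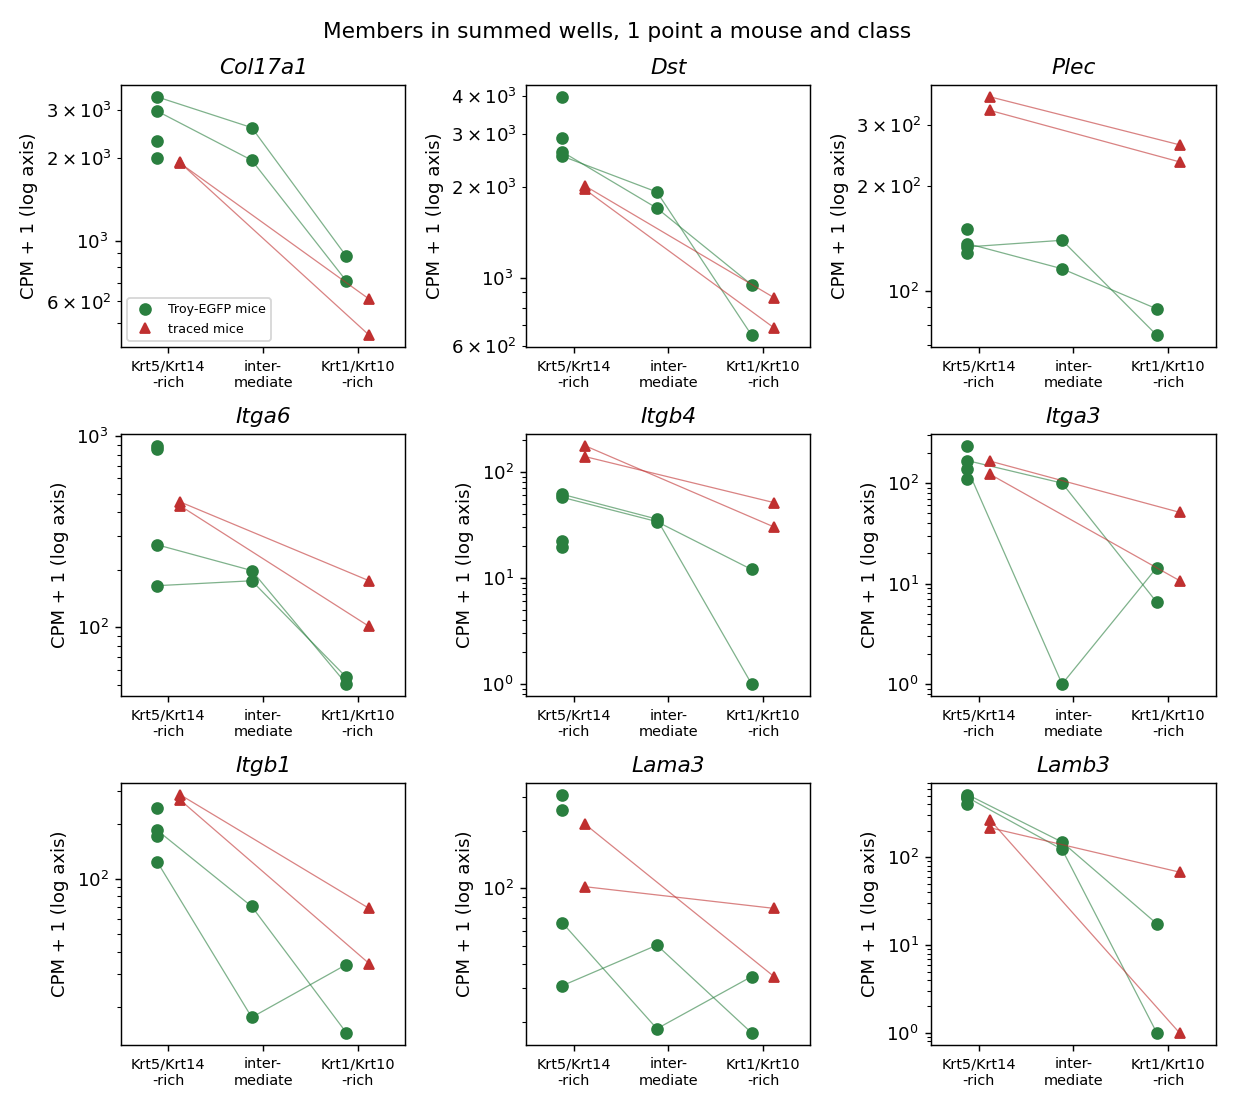
Level of each gene in summed wells of the 3 keratin classes, as CPM + 1 on a log axis that differs between panels, with 1 point a mouse and class (green circles Troy-EGFP mice, red triangles traced mice) and lines joining the classes of a mouse. Points of the Krt1/Krt10-rich class lie below the Krt5/Krt14-rich points of the same mouse in every panel, least so in *Plec*, and *Itga6* and *Lama3* spread widely among the Krt5/Krt14-rich sums.

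*Col17a1*, the transmembrane collagen XVII of the hemidesmosome, had 2302, 1998, 3345 and 2969 CPM in the Krt5/Krt14-rich wells of Troy-EGFP mice 1 to 4 and 875 and 711 CPM in the Krt1/Krt10-rich wells of mice 3 and 4. It had 1920 and 1928 CPM against 611 and 451 CPM in the traced mice. The classes did not overlap. *Col17a1* fell by 1.74 (SE 0.29, adjusted p = 0.00149) on the log2 scale in the Troy-EGFP mice and by 1.85 (SE 0.33, adjusted p = 0.00441) in the traced mice. Its intermediate sums, 2583 and 1964 CPM in mice 3 and 4, stood between the 2 classes of the same mouse.

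*Dst*, whose epithelial product is the plakin BPAG1e, had 3964, 2910, 2528 and 2612 CPM in Krt5/Krt14-rich wells and 649 and 952 CPM in Krt1/Krt10-rich wells of the Troy-EGFP mice. It had 2017 and 1963 CPM against 862 and 685 CPM in the traced mice. *Dst* fell by 1.90 (SE 0.29, adjusted p = 0.000728) and by 1.36 (SE 0.31, adjusted p = 0.024). Both of these often counted members stayed well above 0 in Krt1/Krt10-rich wells, where they made up between 66.7% and 89.9% of the counts of the 9 genes.

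*Plec*, the other plakin, changed least among the 9. It had 128, 150, 136 and 133 CPM in Krt5/Krt14-rich wells and 88 and 73.8 CPM in Krt1/Krt10-rich wells of the Troy-EGFP mice, and 360 and 329 CPM against 262 and 234 CPM in the traced mice. It was lower in Krt1/Krt10-rich wells in each of the 4 mice with a sum of both classes, yet with log2 fold changes of -0.76 (SE 0.32, adjusted p = 0.18) and -0.47 (SE 0.33, adjusted p = 0.554) it passed the test in neither experiment. The 95% intervals were -1.38 to -0.13 and -1.10 to 0.17.

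*Itga6* encodes the integrin whose protein the sort used to define bright cells. Its Krt5/Krt14-rich levels in the Troy-EGFP mice were 852, 889, 269 and 164 CPM, so mice 1 and 2 stood above mice 3 and 4. Krt1/Krt10-rich wells of mice 3 and 4 had 49.5 and 53.7 CPM. Levels in the traced mice were 452 and 432 CPM against 174 and 100 CPM. *Itga6* fell by 3.32 (SE 0.69, adjusted p = 0.00612) in the Troy-EGFP mice, a value that sets mice 3 and 4 against all 4, and by 2.05 (SE 0.39, adjusted p = 3.83e-06) with the mouse as a block, which compares classes within the mouse. It fell by 1.63 (SE 0.35, adjusted p = 0.000106) in the traced mice with the block, and without it the adjusted p was 0.231.

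*Itgb4*, the partner of *Itga6*, rested on few transcripts. It had 21.3, 18.7, 56.4 and 60.3 CPM in Krt5/Krt14-rich wells of the Troy-EGFP mice and 11 and 0 CPM in Krt1/Krt10-rich wells, which is 47 against 2 transcripts, a ratio of 7.96 (95% counting interval 2.08 to 67.7). The traced mice had 175 and 138 CPM against 29.1 and 50.1 CPM. Neither fit without the block called it (adjusted p = 0.0591 and 0.125), and with the block both did (adjusted p = 0.00303 and 0.0131). In each of the 4 mice with a sum of both classes it was lower in Krt1/Krt10-rich wells, and in Troy-EGFP mouse 1, left out for its few wells, it was higher there, on 3 transcripts in 4 wells.

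The 2 chains of the focal adhesion integrin were near 0 in Krt1/Krt10-rich wells of the Troy-EGFP mice. *Itga3* had 234, 108, 166 and 137 CPM in Krt5/Krt14-rich wells and 5.5 and 13.4 CPM in Krt1/Krt10-rich wells, 141 against 3 transcripts and a ratio of 15.9 (95% counting interval 5.34 to 78.1). Its fitted log2 fold change was -3.97 (SE 0.81, adjusted p = 0.00569). In the traced mice it had 121 and 164 CPM against 9.69 and 50.1 CPM, a log2 fold change of -2.46 that was called with the block (adjusted p = 0.00321) and not without it (adjusted p = 0.125). *Itgb1* encodes the beta chain that *Itga3* and many other integrins share. Its levels were 170, 243, 123 and 183 CPM against 33 and 13.4 CPM in the Troy-EGFP mice, and 287 and 269 CPM against 67.8 and 33.4 CPM in the traced mice. *Itgb1* fell by 2.88 (SE 0.53, adjusted p = 0.00278) and by 2.35 (SE 0.55, adjusted p = 0.0267).

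Of the laminin-332 chains, *Lamb3* had 405, 477, 518 and 480 CPM in Krt5/Krt14-rich wells of the Troy-EGFP mice, and 16.5 and 0 CPM in Krt1/Krt10-rich wells. This is 476 against 3 transcripts, a ratio of 53.7 (95% counting interval 18.3 to 262), with a fitted log2 fold change of -5.64 (SE 0.73, adjusted p = 0.000192). The Krt1/Krt10-rich wells of mice 1 and 2 (4 and 8 wells, left out as too few) showed a smaller fall. They had 68.1 and 82.4 CPM without TMM scaling, on 1 and 3 transcripts, against 442 and 452 CPM in Krt5/Krt14-rich wells. In the traced mice the levels were 265 and 216 CPM against 0 and 66.8 CPM, or 249 against 4 transcripts, and the log2 fold change was -3.18 (SE 0.77, adjusted p = 0.0322). All 4 of these transcripts came from traced mouse 2, whose class holds 10 wells, and the log2 fold change was -1.67 (adjusted p = 0.551) without traced mouse 1. The intermediate sums of mice 3 and 4, at 148 and 122 CPM, were already well below the Krt5/Krt14-rich sums of the same mice.

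*Lama3*, the alpha chain that the integrins bind (chr18:12333819-12583013, plus strand), varied between mice. Krt5/Krt14-rich levels were 256, 309, 29.9 and 65.1 CPM in the Troy-EGFP mice, so that mice 1 and 2 again stood above mice 3 and 4, and Krt1/Krt10-rich wells had 16.5 and 33.5 CPM. The traced mice had 101 and 216 CPM against 77.5 and 33.4 CPM. It was lower in Krt1/Krt10-rich wells in each of the 4 mice with a sum of both classes but was not called in either experiment, with log2 fold changes of -2.57 (SE 0.94, adjusted p = 0.117) and -1.40 (SE 0.96, adjusted p = 0.549). Within mice the Troy-EGFP value shrank to -0.92 (SE 0.62, adjusted p = 0.423).

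The higher *Itga6* and *Lama3* of mice 1 and 2 went with *Krt15*, a keratin of basal and bulge cells, at 7545 and 8225 CPM in their Krt5/Krt14-rich wells against 2061 and 2113 CPM in mice 3 and 4. The transcripts of *Kcnq1ot1* and *Mir1950*, a mark of damaged cells in such plates, came to 5754 and 15552 CPM against 28903 and 43448 CPM. Plate names carry an M for mice 1 and 2 and an F for mice 3 and 4. The part of these differences, and of depth, in the *Itga6* and *Lama3* levels was not tested.

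The experiments were compared by testing the difference of their fold changes. No member and no other gene passed (edgeR), and DESeq2 also called 0 genes. At an unadjusted p under 0.05, 205 genes (3.99%) and 0 of the 9 members differed. The nearest member was *Lamb3*, whose fall was smaller by 2.46 (SE 1.30, edgeR adjusted p = 0.983) in the traced mice. This difference turned to -3.16 without traced mouse 2, -3.45 with at least 20 wells a sum, -3.21 without follicle wells and -2.82 after thinning, so it has no stable direction. The 95% intervals of the difference were narrowest for *Dst* (-0.25 to 1.34) and *Col17a1* (-0.92 to 0.72), and a difference within these bounds could not be seen.

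Calls in the traced mice rested on few wells. Without traced mouse 1, 0 of the 9 genes were called among 0.376% of all genes, and without traced mouse 2, 1 was among 0.358%. Without Troy-EGFP mouse 3 or 4, which share the fit, it was 2 and 1 in the traced mice (2.27% and 1.94% of genes) and 2 and 4 in the Troy-EGFP mice (1.75% and 1.94%). With the mouse as a block 7 of the 9 were called in each experiment, among 13.7% of genes in the Troy-EGFP and 12% in the traced mice. In the Krt1/Krt10-rich sums, the lower follicle markers (*Cd34*, *Postn*, *Lhx2*, *Aspn*, *Lgr5*, *Krt24*) summed to 49.5 to 53.7 CPM in the Troy-EGFP and 16.7 to 38.8 CPM in the traced mice, against 2962 to 3936 and 1741 to 1942 CPM in the Krt5/Krt14-rich sums. When wells with follicle markers were left out, the number of members called was 1 in the traced mice, among 1.5% of genes, and 6 in the Troy-EGFP mice, among 4.2%, and all 9 genes kept a negative fold change in both experiments.

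**Figure D2:**
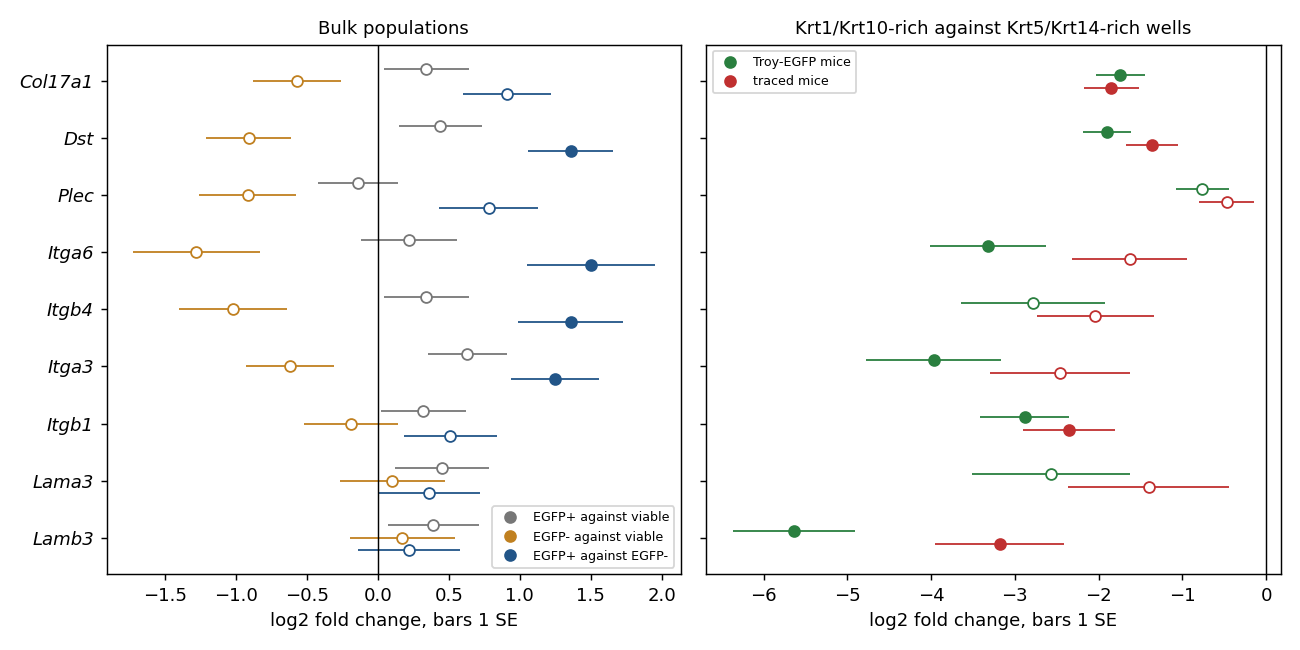
Fitted log2 fold change of each gene (bars 1 SE) between the bulk populations on the left and between Krt1/Krt10-rich and Krt5/Krt14-rich wells on the right; filled points passed an adjusted p of 0.05. All points on the right lie below 0, down to -5.64 for *Lamb3*, whereas on the left EGFP- cells lie below viable cells for 7 of the 9 genes and EGFP+ cells lie above EGFP- cells for all 9.

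The share of wells with a transcript of each gene was also counted. Each well was thinned to 1000 transcripts, which kept all wells of the 3 keratin classes, and the shares were taken over all plates with exact binomial 95% intervals, which cover counting error only. Plates differ in level and in their mix of classes, and Troy-EGFP mice 3 and 4 gave 40 and 24 of the 110 Krt1/Krt10-rich wells and 15 and 16 of the 49 intermediate wells, so values within these 2 mice are given too. *Col17a1* was found in 79.5% of Krt5/Krt14-rich wells (76 to 82.7%), 71.4% of intermediate wells (56.7 to 83.4%) and 40% of Krt1/Krt10-rich wells (30.8 to 49.8%). *Dst* followed the same steps, with 79.7%, 75.5% and 44.5%. Within mouse 3 *Col17a1* had 92.6%, 93.3% and 55%, and within mouse 4 it had 83.7%, 62.5% and 29.2%. *Dst* had 78.7%, 73.3% and 30% in mouse 3 and 80.5%, 68.8% and 37.5% in mouse 4. *Itga6* pooled to 27.3%, 22.4% and 5.45%, but its Krt5/Krt14-rich share ran from 58.3% in mouse 1 to 9.76% in mouse 4. Within mouse 3 *Itga6* had 24.5%, 33.3% and 0%, and within mouse 4 it had 9.76%, 12.5% and 4.17%. The intermediate shares rest on 15 and 16 wells, with intervals of 11.8 to 61.6% and 1.55 to 38.3%. The summed *Itga6* level of intermediate wells was 197 CPM against 269 CPM in Krt5/Krt14-rich wells of mouse 3 and 174 against 164 CPM in mouse 4, so the 2 measures gave no common order of these classes.

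*Itgb1* and *Lamb3* were already rarer in intermediate wells, also within mice 3 and 4. *Lamb3* was found in 25.8% of Krt5/Krt14-rich wells (22.3 to 29.5%), 4.08% of intermediate wells (0.498 to 14%) and 3.64% of Krt1/Krt10-rich wells (1 to 9.05%). It had 31.9%, 13.3% and 5% in mouse 3 and 30.1%, 0% and 0% in mouse 4. *Itgb1* was found in 19.3%, 4.08% and 3.64% over all plates, in 12.8%, 0% and 5% in mouse 3 and in 18.7%, 6.25% and 0% in mouse 4. *Itga3* pooled to 12%, 2.04% and 0.909%, *Itgb4* to 10%, 6.12% and 0.909%, and *Plec* to 18.6%, 12.2% and 10%. Within mouse 3 *Itga3* had 10.6%, 6.67% and 0%, *Itgb4* 6.38%, 0% and 0%, and *Plec* 13.8%, 0% and 7.5%. Within mouse 4 *Itga3* had 7.32%, 0% and 4.17%, *Itgb4* 4.07%, 6.25% and 0%, and *Plec* 9.76%, 18.8% and 0%. The pooled order of the classes thus did not hold within each mouse. In traced mouse 1 *Plec* had 21.7% in Krt5/Krt14-rich and 25% in Krt1/Krt10-rich wells. *Lama3* pooled to 10.3%, 4.08% and 2.73%, but its Krt5/Krt14-rich share was only 2.13% in mouse 3 and 4.07% in mouse 4, where the Krt1/Krt10-rich share was 4.17%, so the pooled shares of *Lama3* mix mice of different level and show no fall within mouse 4. The intermediate class has 49 wells, and for *Itgb4*, *Lama3* and *Plec* its interval reaches the value of the Krt5/Krt14-rich class.

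Without thinning, the deeper Krt1/Krt10-rich wells (median 5327 transcripts against 3174) hid part of this: *Dst* was in 84.5% against 93.9% of wells and *Col17a1* in 78.2% against 93.7%, while *Lamb3* was in 5.45% against 54.9%. The 129 immune wells (median 2277 transcripts), which should lack hemidesmosomes, held *Dst* in 21.7% and *Col17a1* in 18.6% of thinned wells, and *Itgb4* in 0 of 129, which allows a share of up to 2.82%. *Itgb1*, which leukocytes also make, was in 13.2% of them. The pooled Krt1/Krt10-rich shares of *Col17a1* and *Dst* were above those of immune wells, but the gap varied between mice. *Col17a1* had 55% against 20.7% in mouse 3, 29.2% against 23.6% in mouse 4 and 29.2% against 21.4% in traced mouse 1. *Dst* had 30% against 13.8%, 37.5% against 20% and 66.7% against 14.3% in the same mice. In Troy-EGFP mouse 2 *Dst* went the other way, in 50% of 8 Krt1/Krt10-rich wells against 61.5% of 13 immune wells. The pooled Krt1/Krt10-rich shares of *Itga6*, *Itgb4*, *Itga3* and *Lama3* lay within the interval of the immune share, as did that of *Lamb3* (5.43% in immune wells). They could not be told apart from the immune shares, which rest on few wells with a transcript. In traced mouse 1 all 11 *Itga6* transcripts of immune wells lay in 1 of 14 wells. Whether immune wells measure background was not tested. The *Plec* share (10%) was also close to that of immune wells (9.3%), but immune wells held *Plec* at 184 CPM against 226 CPM in Krt5/Krt14-rich wells (without TMM scaling), so they give no background for this gene.

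A thinned Krt5/Krt14-rich well held on average 2.83 of the 9 genes, an intermediate well 2.02, a Krt1/Krt10-rich well 1.12 and an immune well 0.744. None of the 9 was found in 2.71% of Krt5/Krt14-rich wells, 6.12% of intermediate wells, 29.1% of Krt1/Krt10-rich wells and 49.6% of immune wells.

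**Figure D3:**
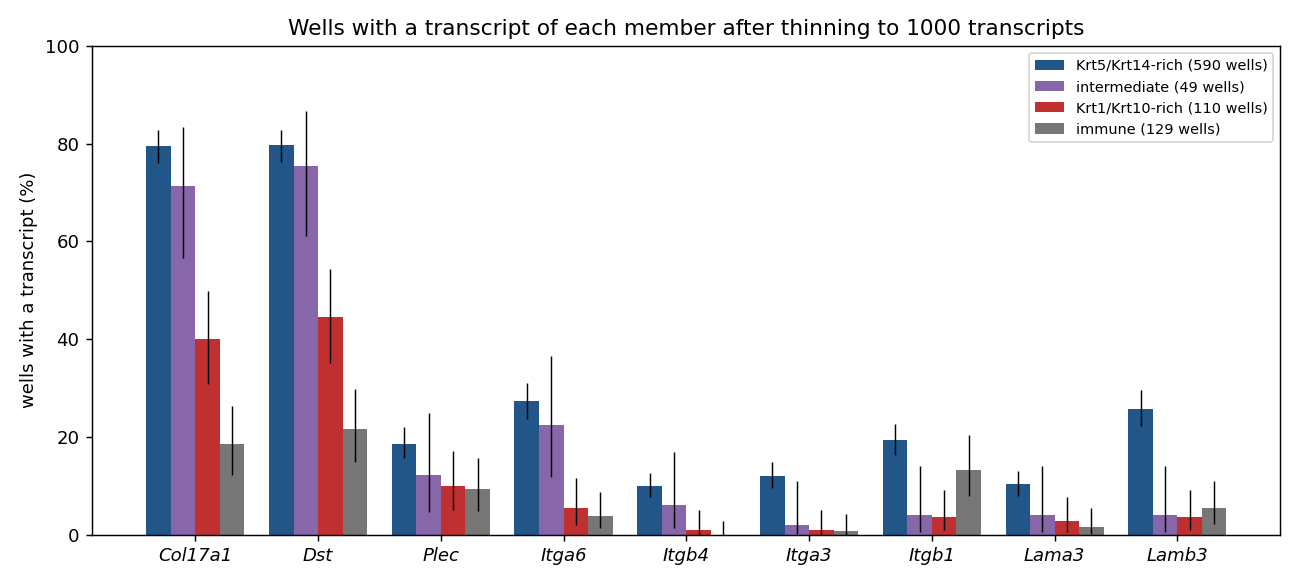
Share of wells with at least 1 transcript of each gene after thinning to 1000 transcripts, in percent, for 4 well classes over all plates (bars) with exact binomial 95% intervals (lines). *Col17a1* and *Dst* stay near the Krt5/Krt14-rich share in intermediate wells (71.4% and 75.5%), whereas *Lamb3* and *Itgb1* drop to 4.08% there. Shares are pooled over plates that differ in level, above all in *Itga6* and *Lama3*.

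The 590 Krt5/Krt14-rich wells are not 1 kind of cell. By markers, 243 wells held fewer than 2 transcripts of either follicle list, 138 held at least 2 of the lower follicle list, 99 of the upper follicle list (*Krt79*, *Cst6*, *Defb6*, *Gata6*, *Krt17*) and 110 of both. The median depth of these wells was 3227, 2841, 3601 and 3398 transcripts. Since these groups of wells were drawn by markers, the levels are a description with no test, over mice with at least 10 wells of a kind, in CPM without TMM scaling (5, 5 and 4 mice for neither, lower and upper).

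*Itga6* was highest in wells with neither set of markers, at a median of 601 (197 to 1143 over mice), against 226 (115 to 426) in lower follicle wells and 246 (130 to 328) in upper follicle wells. It was lower in lower follicle wells in 5 of 5 mice and in upper follicle wells in 4 of 4. *Col17a1* had another order of medians, with 3077 (2330 to 3718) in lower follicle wells, 2165 (1775 to 3645) in wells with neither and 1242 (1008 to 2089) in upper follicle wells. It was higher in lower follicle wells than in wells with neither in 4 of 5 mice, the exception being Troy-EGFP mouse 3 (3075 against 3645), and the upper follicle value was the lowest of the 3 in 4 of 4 mice. *Dst* had 2486 (1597 to 3383), 2462 (2081 to 3196) and 1274 (1135 to 1563) in the same order, and its upper follicle level was again the lowest in each of these 4 mice. Troy-EGFP mouse 2, left out of the upper follicle values for its 8 wells, went the other way, with 1619 in upper follicle wells against 1143 in wells with neither for *Itga6*, 2171 against 1798 for *Col17a1* and 2515 against 2434 for *Dst*.

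*Lamb3* was higher in lower follicle wells than in wells with neither set in 5 of 5 mice, at 469 (288 to 721) against 332 (183 to 467). In Troy-EGFP mouse 3 the values were nearly equal (469 against 467). Troy-EGFP mouse 1, left out for its few wells, had 483 against 494. *Itga3* and *Itgb1* were lower in upper follicle wells than in wells with neither in 4 of 4 mice, at 63.9 against 127 and 145 against 227. The 8 upper follicle wells left out in Troy-EGFP mouse 2 had 138 against 104 for *Itga3*, on 4 transcripts, and 241 against 301 for *Itgb1*. *Itgb4* and *Lama3* took no common order over mice. *Plec* was lower in upper follicle wells in 4 of 4 mice, by little in Troy-EGFP mouse 4 (115 against 124), and both medians, over 4 and 5 mice, were 164.

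**Figure D4:**
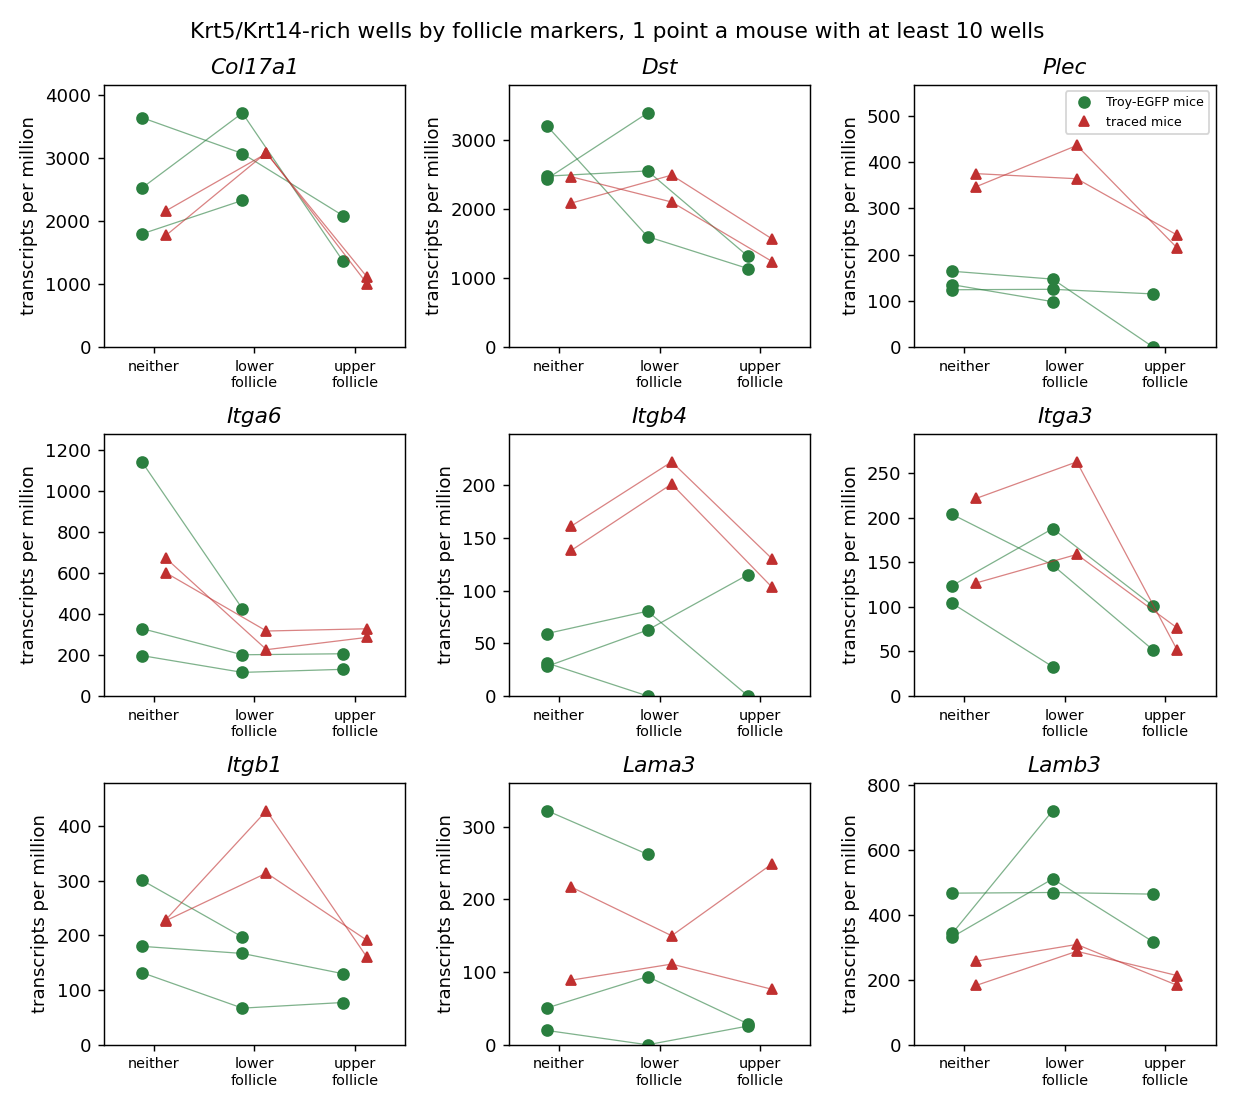
Level of each gene, in CPM without TMM scaling (transcripts of the gene over all transcripts of the wells), in Krt5/Krt14-rich wells with neither follicle list, with the lower or with the upper follicle list, 1 point a mouse with at least 10 wells (green circles Troy-EGFP mice, red triangles traced mice), lines joining a mouse. Among the mice plotted for each kind of well, *Itga6* lies highest in wells with neither list, and *Col17a1* and *Dst* lie lowest in upper follicle wells. The 8 upper follicle wells of Troy-EGFP mouse 2 are not plotted and lay above its wells with neither list in these 3 genes.

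In the bulk libraries the ITGA6bright populations were compared with all viable cells and with each other. Here a drop can mean fewer cells of a type or less RNA in each, and the libraries cannot tell these apart. The 3 comparisons share libraries, so their values are set side by side and not counted as independent. Against viable cells edgeR without a block called no member in either bright population, while 4 of the 9 were higher in EGFP+ than in EGFP- cells. Summed over the 9 genes, viable cells had 5566 and 5923 CPM, EGFP+ cells 7709 and 7338 CPM and EGFP- cells 3307 and 3953 CPM in mice 1 and 2. The 2 bright populations therefore lay on either side of viable cells.

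**Figure D5:**
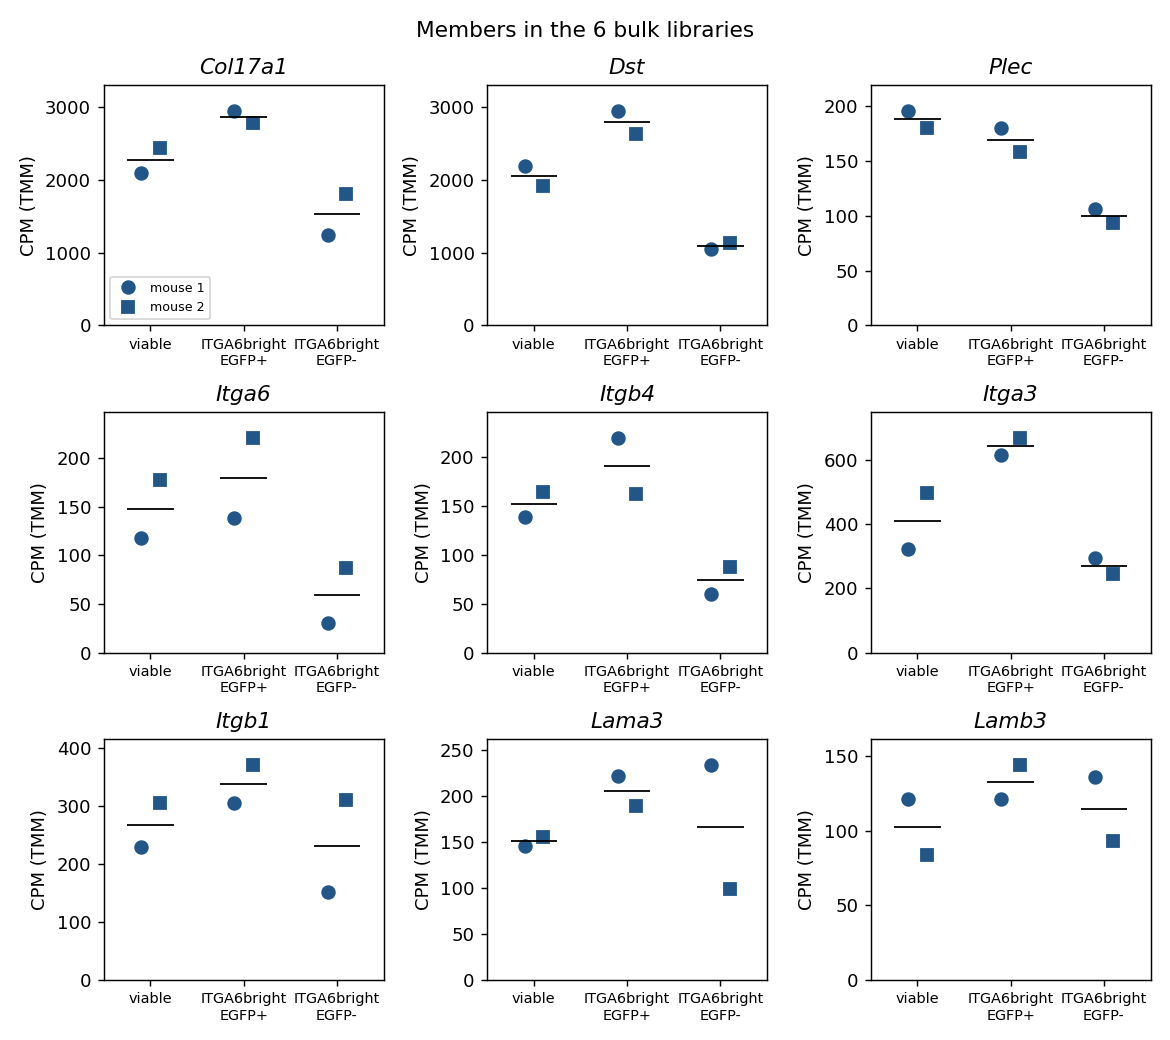
Level of each gene in the 6 bulk libraries, in CPM with TMM scaling on axes that start at 0 (circles mouse 1, squares mouse 2, lines the mean of 2 libraries). EGFP- cells lie below viable and EGFP+ cells in *Dst*, *Itga6*, *Itgb4*, *Itga3*, *Col17a1* and *Plec*, and overlap with both in *Lamb3*, *Lama3* and *Itgb1*.

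In EGFP+ against viable cells 0 of the 9 genes passed (edgeR, and 0 with DESeq2), and 0.473% of 4653 genes were called. At an unadjusted p under 0.05, 6.66% of genes and 1 member differed. That member was *Itga3*, with 616 and 668 CPM in EGFP+ and 321 and 498 CPM in viable cells, a log2 fold change of 0.63 (SE 0.28, adjusted p = 0.661). The median over the 9 genes was 0.34, against 0.01 over all genes, and 8 of the 9 were positive, with *Plec* at -0.14 (SE 0.28, adjusted p = 0.997). Both EGFP+ libraries lay above both viable libraries in 5 of the 9 (*Col17a1*, *Itga3*, *Itgb1*, *Lama3* and *Dst*), against 20.6% of all genes, and below them in *Plec*, against 19.6%. *Itga6*, whose protein defined the gate, had 139 and 221 CPM in EGFP+ and 118 and 178 CPM in viable cells, which describes the gate and was 0.22 (SE 0.34, adjusted p = 0.986) on the log2 scale.

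In EGFP- against viable cells 0 of the 9 genes passed in edgeR's test without a block, and 1.78% of 4653 genes did. At an unadjusted p under 0.05 there were 4 members (*Itga6*, *Itgb4*, *Dst* and *Plec*) among 13.5% of genes, and all 4 were lower in EGFP- cells. *Dst* had 1049 and 1131 CPM in EGFP- and 2195 and 1916 CPM in viable cells, a log2 fold change of -0.91 (SE 0.30, adjusted p = 0.145), which DESeq2 called (adjusted p = 0.0105). *Itga6* had 30.2 and 87.5 CPM in EGFP- and 118 and 178 CPM in viable cells. Although these cells were sorted as bright for its protein, its log2 fold change was -1.28 (SE 0.45, adjusted p = 0.17), and with the mouse as a block it passed (adjusted p = 0.0487).

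EGFP- libraries lay below both viable libraries in 6 of the 9 genes, against 21.1% of all genes. These were *Itga6*, *Itgb4*, *Col17a1*, *Dst*, *Plec* and *Itga3*. *Plec* had 106 and 93.3 CPM against 196 and 180 CPM, a log2 fold change of -0.92 (SE 0.34, adjusted p = 0.201). *Itgb4* had 60.4 and 87.5 CPM against 139 and 165 CPM, a log2 fold change of -1.02 (SE 0.38, adjusted p = 0.203). All 5 hemidesmosome members and *Itga3* are in this group, and the laminin chains and *Itgb1* are not, with log2 fold changes between -0.19 and 0.17.

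Between the 2 bright populations, 4 of the 9 genes were higher in EGFP+ cells and none was lower, with 2.99% of 4653 genes called higher and 7.05% in either direction. *Dst* had 2953 and 2638 CPM in EGFP+ cells and 1049 and 1131 CPM in EGFP- cells, and was higher by 1.36 (SE 0.30, adjusted p = 0.00766) on the log2 scale. *Itga3* had 616 and 668 CPM against 294 and 245 CPM, a log2 fold change of 1.25 (SE 0.31, adjusted p = 0.0162). Neither gene overlapped between the populations, nor did *Itga6*, *Itgb4*, *Col17a1* and *Plec*, which makes 6 of the 9 against 23.8% of all genes.

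*Itgb4* had 220 and 162 CPM in EGFP+ against 60.4 and 87.5 CPM in EGFP- cells (log2 fold change 1.36, SE 0.37, adjusted p = 0.0305). *Itga6* had 139 and 221 against 30.2 and 87.5 CPM (log2 fold change 1.50, SE 0.45, adjusted p = 0.0449), on 101 against 19 counts. Both chains of the hemidesmosomal integrin were thus higher in EGFP+ cells, but DESeq2 called neither (adjusted p = 0.216 and 0.207). *Col17a1* had 2953 and 2787 against 1246 and 1808 CPM, a log2 fold change of 0.91 (SE 0.31) with an adjusted p of 0.0872, and passed with the block (adjusted p = 0.0428) and in DESeq2 (adjusted p = 0.0243).

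*Plec* (180 and 158 against 106 and 93.3 CPM, adjusted p = 0.204) did not pass. Nor did *Itgb1*, with 305 and 370 against 151 and 309 CPM (adjusted p = 0.433). *Lama3* had 222 and 189 CPM in EGFP+ and 234 and 99.1 CPM in EGFP- cells, and *Lamb3* 121 and 144 against 136 and 93.3 CPM. In both laminin genes the EGFP- library of mouse 1 lay above that of mouse 2, and the log2 fold changes, 0.36 (95% interval -0.35 to 1.07) and 0.22 (-0.49 to 0.93), had intervals that span 0. Over the 9 genes the median was 0.91, against -0.04 over all genes.

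The number of members called between the bright populations moved with single libraries. It was 1 without the EGFP+ library of mouse 1 (2.65% of all genes called), 2 without that of mouse 2 (3.93%), 2 without the EGFP- library of mouse 1 (7.71%) and 6 without that of mouse 2 (13.4%). *Dst* passed in 10 of 11 alternatives, *Itga3* in 9, *Itgb4* in 7 and *Itga6* in 6.

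Markers of other cells moved with the same comparison. Immune markers (*Ptprc*, *Cd3d*, *Cd3e*, *Cd3g*, *Cd7*, *Cd207*, *Csf1r*) summed to 204 to 302 CPM in EGFP- cells with 5 to 6 of the 7 detected, to 72.1 to 99.8 CPM in viable cells and to 4.51 to 5.36 CPM in EGFP+ cells with 1 to 2 detected. Upper follicle markers summed to 4023 to 7670 CPM in EGFP-, 702 to 879 CPM in EGFP+ and 3588 to 4500 CPM in viable cells, with all 5 detected in every library, and lower follicle markers to 340 to 373, 108 to 123 and 440 to 534 CPM. Against viable cells edgeR called *Lhx2*, *Krt79*, *Cst6*, *Defb6* and *Krt17* lower in EGFP+ cells, and in EGFP- cells it called *Ptprc* and *Defb6* higher and *Krt17* lower. Fibroblast markers, which include collagen genes, summed to 87.5 to 90.6 CPM in EGFP-, 5.36 to 18 CPM in EGFP+ and 9.02 to 139 CPM in viable cells. The damage transcripts of *Kcnq1ot1* and *Mir1950* came to 13257 to 18752 CPM in EGFP-, 8057 to 8610 CPM in EGFP+ and 8051 to 20520 CPM in viable cells. Their part in the member levels was not tested.

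The basal keratins themselves were also lower in EGFP- cells, at 8131 and 10397 CPM of *Krt5* against 17637 and 16724 CPM in EGFP+ cells (log2 fold change 0.89, adjusted p = 0.119), and *Krt1* and *Krt10* were higher in EGFP+ cells by 2.03 (adjusted p = 0.000338) and 1.66 (adjusted p = 0.00179) on the log2 scale. Members were therefore also set against the basal keratins. Per 100 counts of *Krt5* and *Krt14* together, *Dst* had 12.5 and 11.7 counts in EGFP+ and 8.4 and 8.13 counts in EGFP- cells, with 12.1 and 9.67 in viable cells. *Itgb4* had 0.932 and 0.718 against 0.483 and 0.628, and *Itga3* 2.61 and 2.95 against 2.36 and 1.76, still without overlap. *Itga6* (0.591 and 0.978 against 0.242 and 0.628) and *Col17a1* (12.5 and 12.3 against 9.97 and 13) overlapped on this scale. So did *Plec* (0.762 and 0.698 against 0.846 and 0.67), *Itgb1* (1.30 and 1.64 against 1.21 and 2.22) and *Lama3* (0.943 and 0.838 against 1.87 and 0.712). *Lamb3* had 0.511 and 0.638 counts in EGFP+ and 1.09 and 0.67 counts in EGFP- cells, the reverse order without overlap. The share of all genes without overlap on this scale was not computed, so these values are a description with no test.

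Other genes of the same structures were read from lists. *Col7a1*, the collagen of the anchoring fibrils under the hemidesmosome, had 158 and 176 CPM in EGFP+, 30.2 and 35 CPM in EGFP- and 146 and 124 CPM in viable cells. It was higher in EGFP+ than in EGFP- cells by 2.32 (SE 0.43, adjusted p = 0.00152) and its log2 fold change in EGFP- against viable cells was -2.01 (SE 0.43, adjusted p = 0.017). Of 12 focal adhesion genes tested, 1 was lower in EGFP+ cells, *Actn1* (alpha-actinin, at 139 and 113 against 219 and 373 CPM, adjusted p = 0.0275), and 0 of 9 other basement membrane genes and 0 of 7 other matrix receptors passed. The medians of these 3 lists were -0.32, 0.13 and -0.33.

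In the wells, 7 of 10 other basement membrane genes tested were lower in Krt1/Krt10-rich wells of the Troy-EGFP mice and 3 of 10 in the traced mice, with medians of -3.33 and -5.98. In the traced mice 7 of the 10 had no transcript in Krt1/Krt10-rich wells, and in the Troy-EGFP mice 1 had none. With these genes at their bound the median was -3.12 in the Troy-EGFP mice and -1.61 in the traced mice. *Agrn*, the heparan sulfate proteoglycan agrin, had 86 transcripts in Krt5/Krt14-rich and 0 in Krt1/Krt10-rich wells of the Troy-EGFP mice (at least 9.71-fold lower, on a floor of 3 counts over the group) and 257 against 0 in the traced mice (at least 13.5-fold lower). *Sparc*, which encodes a collagen-binding matrix protein, had 199 against 2 transcripts (ratio 33.7, 95% counting interval 9.21 to 280) and 364 against 1 (ratio 57.6, 10.3 to 2280). *Col18a1* had 142 against 3 transcripts (ratio 16, 5.38 to 78.7) and 85 against 0 (at least 4.48-fold lower). *Npnt*, the nephronectin gene, had 54 against 1 transcript in the Troy-EGFP mice (ratio 18.3, 3.15 to 736).

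Of 8 other matrix receptors, 1 was lower in each experiment, and it was *Bcam*, a laminin alpha 5 receptor, with log2 fold changes of -2.61 (SE 0.47, adjusted p = 0.00246) and -2.79 (SE 0.56, adjusted p = 0.0113). The medians of the 8 were -0.16 and -0.60. Of 11 focal adhesion genes, 4 were lower in the Troy-EGFP mice and 1 in the traced mice, with medians of -1.06 and -1.90. *Actn1* was the gene called in both, with 199 against 5 transcripts (ratio 13.5, 5.68 to 42) and 434 against 1 (ratio 68.6, 12.3 to 2717). The other 3 were *Pxn* (paxillin), with 47 against 1 transcript, *Rsu1*, with a log2 fold change of -2.50 (SE 0.60, adjusted p = 0.0157), and *Zyx* (zyxin), with one of -2.46 (SE 0.65, adjusted p = 0.0277). None of the genes on these 3 lists was called higher in Krt1/Krt10-rich wells.

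Over the 12 single-cell sums, each member's log2 CPM was compared with the mean of the other 8. Pearson's r was 0.843 for *Itga6*, 0.802 for *Dst*, 0.796 for *Itgb1* and 0.757 for *Lamb3*, and 0.442 for *Plec*, the lowest of the 9. The genes outside the 9 with the closest pattern were *Lphn2* (r = 0.961), an adhesion receptor of the latrophilin family, *Glul* (0.952), which encodes glutamine synthetase, *Agrn* (0.936), *Tcf7l2* (0.935), a transcription factor of Wnt signalling, and *Zfp36l1* (0.928), an RNA-binding protein that promotes mRNA decay. The 12 sums share mice and plates and include the classes that the keratins separated, so these values are a description of likeness with no test.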

How the data were processed

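For the bulk libraries (CEL-Seq2) the authors deposited whole-number counts per gene with no normalization. For the single cells (SORT-seq) the authors deposited estimated counts, which are barcodes adjusted for those that 2 molecules shared by chance. They turned back into whole barcodes for a space of 4096, which is 6 bases, although the labels give 4 bases. The submitters' processing notes name BWA 0.6.2-r126 and mm10 or GRCm38, and for the bulk libraries also hg19. The largest bulk count of a gene was 19444, more than the barcode space holds, and the study's methods call the bulk values raw read counts. All 6 plates number their 384 wells by 1 barcode set, so wells of different plates share a barcode by design. The totals and depths stand in the text, and 0 columns of per-sample values were left unused.

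Bulk counts, or estimated counts summed per mouse and class of wells and rounded, were fitted in R 4.3.3 by edgeR 4.0.16. The fit used TMM scaling, the filterByExpr minimum and the quasi-likelihood test. It had a mean per group over all 6 libraries or all 12 sums. P-values were adjusted by Benjamini-Hochberg over all genes tested, and genes under 0.05 are called. DESeq2 1.42.0 was an alternative. Tables and intervals were made with Python 3.11.15, pandas 2.3.3 and scipy 1.17.1. Floors are 3 counts over a group, and intervals and floors cover counting error only. Doublets were not searched for, beyond leaving out wells with immune markers. The fits were tested on simulated data. The members and lists were chosen with earlier results of these data known. Named genes were all 9 members, the 4 keratins and *Krt15*, from each list up to 4 called genes with the largest fold change in each comparison, and the 5 genes most like the members. A result on the list of other hemidesmosome genes is not reported here.

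Populations and classes of a number come from 1 mouse, which pairs them. The deviations of same-mouse samples from their group means correlated by 0.037, 0.0637 and 0.0743 between bulk populations, and by 0.111 and 0.023 between classes of the Troy-EGFP and traced mice. Values with the mouse as a block stand beside the results they change.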

Additional observations from a re-analysis of the deposited data

Results flagged for a closer look

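By Dixon's test on the share of thinned Krt5/Krt14-rich wells with a transcript, over the 4 Troy-EGFP mice and 18 groups looked at, mouse 1 stood apart for *Dst* (gap over range 0.915) and *Lamb3* (0.839), both above Dixon's 95% critical value. Chance flags about 1 in 20 groups. In mouse 1 *Dst* was in 100% of wells against 78.7 to 80.5% in the other 3, and *Lamb3* in 50% against 30.1 to 33.3%. Mouse 1 has 12 such wells and the shallowest plate.

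The 231 wells of at least 1000 transcripts with few keratin transcripts entered no comparison, and members were counted in them above what a count of 0 allows. These wells held 273 barcodes of *Dst*, 260 of *Col17a1*, 45 of *Lamb3*, 42 of *Plec*, 36 of *Itga6*, 19 of *Itgb1*, 19 of *Lama3*, 14 of *Itga3* and 8 of *Itgb4*. Pooled over plates after thinning, *Dst* was in 33.9% of 227 such wells and *Col17a1* in 32.2%. Pooled shares were 21.7% and 18.6% in immune wells and 44.5% and 40% in Krt1/Krt10-rich wells. Within Troy-EGFP mice 2, 3 and 4 *Dst* had 68.4%, 32.5% and 41.9% against 50%, 30% and 37.5% in Krt1/Krt10-rich wells. In the traced mice it had 17.2% and 24.1% against 66.7% and 50%. *Col17a1* had 47.5% against 55% in mouse 3 and 41.9% against 29.2% in mouse 4. Wells with few keratin transcripts and Krt1/Krt10-rich wells thus took no common order over mice.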

How the results depend on the processing

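The number of members called was the same, or within 1.5 times, except as follows, and the cause was not tested unless fewer samples or wells show it. Without 1 library it ran from 1 to 6 for EGFP+ against EGFP- cells, from 0 to 3 for EGFP- against viable cells, from 2 to 7 in the Troy-EGFP and from 0 to 5 in the traced mice. In EGFP- against viable cells it was 1 with DESeq2, with no filter and with the mouse as a block. With only the populations compared it was 2 for EGFP+ against EGFP- cells. In the traced mice it was 1 with at least 20 wells a sum and with follicle wells left out, and 2 with at least 4 wells (chosen after seeing the data), with class limits of 25% or after thinning, where 5 members were tested. With the block it was 7 in both experiments.

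Over all genes, EGFP+ against viable cells had 22 calls, 12 with DESeq2, 43 with no filter, 66 with only the populations compared and 7 to 124 without a library. EGFP- against viable cells had 83, 49 with DESeq2, 133 with no filter, 38 with only the populations compared and 27 to 464 without a library. EGFP+ against EGFP- cells had 328, 136 with DESeq2, 151 with only the populations compared and 131 to 751 without a library. The Troy-EGFP mice had 456, 245 with at least 4 wells, 146 without follicle wells, 110 after thinning and 102 to 510 without a mouse. The traced mice had 189, 73 with at least 20 wells, 110 with at least 4, 84 with limits of 5% and 75%, 52 without follicle wells, 49 after thinning and 22 to 316 without a mouse. The difference between experiments had 0 and, with no filter, 20. With the mouse as a block the counts were 49, 163 and 615 for EGFP+ and EGFP- against viable cells and the traced mice, 704 for the Troy-EGFP mice and 7 for the difference. With at least 4 wells and the block they were 362 in the traced mice and 3 for the difference. The block changed no other call of a member than those given beside the results.

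No called member reversed. Of those not called, in EGFP+ against viable cells *Itga6* ran from -0.11 to 0.59 and *Krt14* from -0.04 to 0.21 without 1 library. In EGFP- against viable cells *Itgb1* ran from -0.89 to 0.17, *Lama3* from -0.63 to 0.57 and *Lamb3* from -0.12 to 0.40, *Lama3* was -0.02 with plain library sizes and -0.09 with no filter, and *Lamb3* -0.01 with no filter. *Lama3* in EGFP+ against EGFP- cells ran from -0.10 to 1.08. In the difference between experiments, without 1 mouse *Col17a1* ran from -0.34 to 0.16, *Lamb3* from -3.16 to 6.61, *Itgb4* from -0.31 to 4.25, *Itgb1* from -0.09 to 1.53 and *Lama3* from -0.06 to 2.29. *Col17a1* was 0.12 with at least 20 wells and without follicle wells, 0.04 with at least 4 wells and with plain library sizes, 0.07 with a minimum of 2000 transcripts, 0.06 with DESeq2, 0.16 with the block and 0.11 with the block and 4 wells. *Lamb3* was -3.45 with at least 20 wells, -3.21 without follicle wells and -2.82 after thinning. *Itgb4* was -0.65 with at least 4 wells, -0.15 with 4 wells and the block, -0.25 with limits of 5% and 75% and -1.27 without follicle wells. *Lama3* was -0.30 with the block. DESeq2 moved the median of all genes in this difference from -0.10 to 0.60.

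Depth limits *Itgb4*, *Itga3*, *Itgb1*, *Lama3* and *Lamb3* most, with at most 10 transcripts each in a Krt1/Krt10-rich class.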
